A study of Mus musculus with 4 samples.

Results

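The metallothioneins Mt1 and Mt2, the metal-responsive transcription factor Mtf1, the zinc exporter Slc30a1 and the zinc importer Slc39a10 were described in single cells of MC38 tumours, a mouse colon carcinoma line. These 5 genes, of 26172 genes listed in either library, were chosen by name with their UMI levels in these libraries in view, so the levels themselves are a description and support nothing further. Cells came from tumours grown in FOXP3 humanized mice and in wild-type mice, 10 weeks old, and were taken on day 20 after implantation. Regulatory T cells are defined by the transcription factor FOXP3, and the stated aim was to profile these cells inside the tumour. No treatment was given in either genotype. The labels give neither the number of mice behind a library nor the part of FOXP3 that is humanized.

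Each genotype had 1 cDNA library, so no difference between genotypes has a replicate check and none carries a p-value, and the effect of genotype cannot be told apart from that of library or mouse. The FOXP3 humanized library held 11087 barcodes with 147738781 unique molecular identifiers (UMIs), and the wild-type library held 7691 barcodes with 134214718 UMIs. Barcodes were read in 2 classes. Deep barcodes had 5000 or more UMIs and no UMI of Cd3e, Cd3d, Cd3g or the leukocyte gene Ptprc, and they numbered 9671 in the humanized and 6705 in the wild-type library, with median depths of 12522 and 16866 UMIs. T barcodes had under 5000 UMIs and at least 1 UMI of Cd3e, Cd3d or Cd3g, and they numbered 155 in the humanized and 96 in the wild-type library, with median depths of 1587 and 1700.5 UMIs. The remaining 1261 humanized and 890 wild-type barcodes belonged to neither class. Barcode names are running cell numbers rather than sequences, and 1551 of them occur in both libraries. Deep barcodes, 87.2% of all barcodes in each library, seldom carried T cell markers. At least 1 UMI from a list of 10 was present in 4.51% of humanized and 6.91% of wild-type ones, against 97.4% and 96.9% of T barcodes. This contrast follows in part from the class rule, which bars CD3 and Ptprc UMIs from deep barcodes and requires CD3 in T barcodes. It therefore cannot decide whether the label of immune cells holds for deep barcodes. Deep barcodes carried Sparc, Cald1, Serpinh1 and Timp3, while the epithelial keratin genes Krt8, Krt18 and Krt19 were close to 0 there (Krt8 had 40 UMIs over all humanized and 129 over all wild-type deep barcodes).

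Metallothioneins are small cysteine-rich proteins that bind zinc and copper in the cytosol. When free zinc rises, MTF-1 binds metal response elements in the promoters of Mt1, Mt2 and Slc30a1 and raises their transcription, so that more zinc is stored and more is exported. Zinc transporters of the Slc39 (ZIP) family bring zinc into the cytosol and those of the Slc30 (ZnT) family take it out, and ZIP10, the product of Slc39a10, has been described as repressed by MTF-1 in zebrafish and mouse cells. Glucocorticoids, oxidants and cytokines also induce metallothioneins in many tissues.

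The promoter windows of the 3 members known as direct MTF-1 targets are printed below because their levels are followed together further on. Windows come from the RefSeq table of build GRCm38.p6, run from 250 bases before to 50 bases after the annotated start, and are written 5′ to 3′ on the gene's strand. Capitals mark the 7-base core of the metal response element, TGCACNC or TGCGCNC, on either strand.
Mt1 promoter, chr8:94178839-94179138, plus strand: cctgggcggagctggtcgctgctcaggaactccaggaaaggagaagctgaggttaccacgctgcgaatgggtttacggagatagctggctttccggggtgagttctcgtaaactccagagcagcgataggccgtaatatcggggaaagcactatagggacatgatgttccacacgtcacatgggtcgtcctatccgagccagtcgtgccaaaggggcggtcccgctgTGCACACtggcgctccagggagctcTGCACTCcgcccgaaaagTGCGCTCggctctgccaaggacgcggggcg
Mt2 promoter, chr8:94172368-94172667, plus strand: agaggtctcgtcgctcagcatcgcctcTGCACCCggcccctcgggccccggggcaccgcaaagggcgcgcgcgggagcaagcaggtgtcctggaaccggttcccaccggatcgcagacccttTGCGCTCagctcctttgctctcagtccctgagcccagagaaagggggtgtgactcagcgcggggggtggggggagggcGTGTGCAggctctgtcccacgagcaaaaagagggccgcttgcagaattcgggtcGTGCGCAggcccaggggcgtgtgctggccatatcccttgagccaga
Slc30a1 promoter, chr1:191906531-191906830, plus strand: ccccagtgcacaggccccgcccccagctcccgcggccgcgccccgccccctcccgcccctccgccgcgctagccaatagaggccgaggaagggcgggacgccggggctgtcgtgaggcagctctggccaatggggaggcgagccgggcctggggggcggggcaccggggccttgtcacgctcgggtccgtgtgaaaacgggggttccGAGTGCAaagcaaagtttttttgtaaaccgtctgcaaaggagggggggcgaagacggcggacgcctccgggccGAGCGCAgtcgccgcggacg
The Mt2 window held 4 matches, the Mt1 window 3 and the Slc30a1 window 2, whereas the Mtf1 window and both Slc39a10 windows held 0. Counted from the RefSeq start, matches in Mt1 began at -23, 3 and 21, those in Mt2 at -223, -128, -50 and 5, and those in Slc30a1 at -43 and 31. At least 1 match occurred in 25.7% of all 32851 windows of this length, at least 2 in 7.11%, at least 3 in 1.97% and at least 4 in 0.517%. A match in these letters is a description of the window and not a bound site. Matches outside the windows were not counted, and whether transcription in these cells begins at the RefSeq start was not tested. The Mt1 and Mt2 windows lie 6172 bases apart on the same strand. Mt3 and Mt4, the brain and squamous epithelium forms of the family, have their starts in the same stretch of chromosome 8, and each window held 1 match.

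Mt1 was read in nearly every deep barcode of both libraries. Summed over deep barcodes it had 662509 UMIs in the humanized and 644959 in the wild-type library, which are levels of 4713 (95% interval 4701 to 4724) and 4994 (4982 to 5006) CPM, counts scaled to 1000000 UMIs of the class. Intervals here and below are exact 95% intervals that cover counting error only. At least 1 Mt1 UMI was found in 99.9% of humanized and 100% of wild-type deep barcodes. Mt2 had 236751 and 257265 UMIs, or 1684 CPM (1677 to 1691) in the humanized and 1992 CPM (1984 to 2000) in the wild-type library. Both forms were thus abundant in both libraries, and together they made up 0.640% of humanized and 0.699% of wild-type deep UMIs. Mt3 had 28 UMIs in humanized and 36 in wild-type deep barcodes, and Mt4 had 8 and 9, so the metallothionein signal of these cells came from Mt1 and Mt2.

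The regulators were read at far fewer UMIs. Mtf1 had 1925 UMIs and 13.7 CPM (13.1 to 14.3) in humanized deep barcodes, against 2116 UMIs and 16.4 CPM (15.7 to 17.1) in wild-type ones. Slc30a1, which sits in the plasma membrane and exports zinc, had 539 UMIs and 3.83 CPM (3.52 to 4.17) in the humanized and 570 UMIs and 4.41 CPM (4.06 to 4.79) in the wild-type library. Slc39a10, a plasma membrane importer, had 754 UMIs and 5.36 CPM (4.99 to 5.76) in the humanized and 855 UMIs and 6.62 CPM (6.18 to 7.08) in the wild-type library. Mtf1 was seen in 17.2% of humanized and 25.2% of wild-type deep barcodes, Slc30a1 in 5.17% and 7.62%, and Slc39a10 in 7.07% and 10.7%. These shares follow depth as well as level, since the humanized deep barcodes were shallower. After each deep barcode was thinned at random to 5000 UMIs, the shares were 6.39% and 7.49% for Mtf1, 1.76% and 1.98% for Slc30a1, and 2.66% and 3.10% for Slc39a10, humanized before wild-type.

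**Figure D1:**
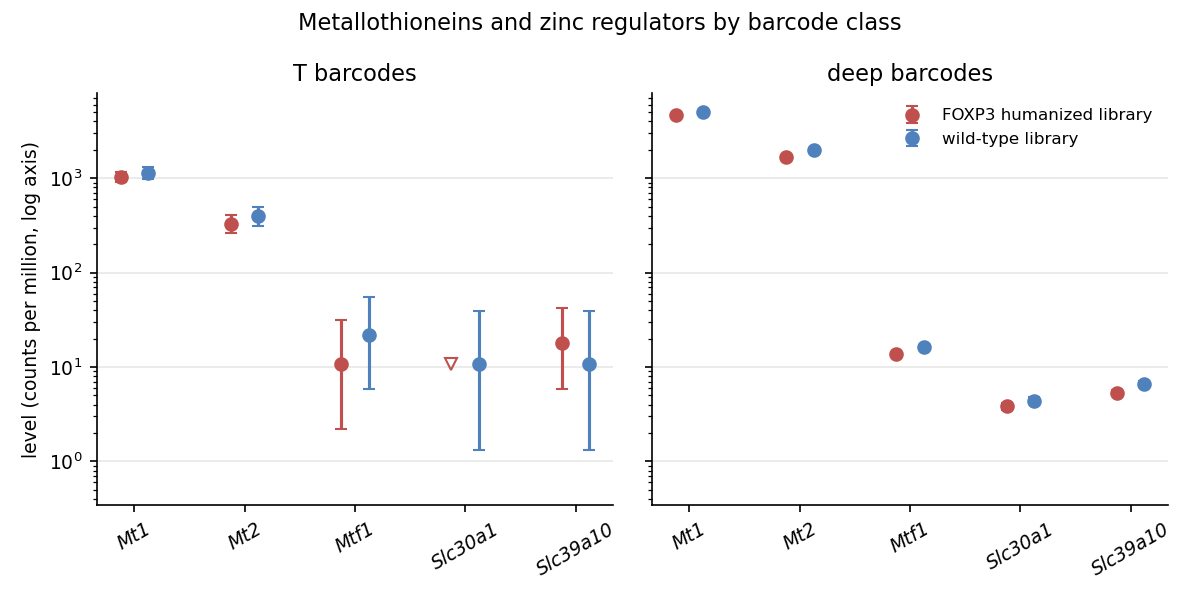
Level of each of the 5 genes in T barcodes (left) and deep barcodes (right) of the FOXP3 humanized and wild-type libraries, in CPM on a log axis; points are summed UMIs of 1 library, bars are exact 95% counting intervals, and the open triangle marks the 3-count limit of a gene with 0 UMIs. Mt1 lay near 4713 CPM in humanized and 4994 CPM in wild-type deep barcodes and near 1029 and 1138 CPM in T barcodes, and the intervals of Mtf1, Slc30a1 and Slc39a10 in T barcodes are wide.

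Between genotypes none of the 5 genes differed by 1.5-fold in deep barcodes. The log2 ratio of humanized over wild-type was -0.08 (-0.09 to -0.08) for Mt1, -0.24 (-0.25 to -0.23) for Mt2, -0.26 (-0.35 to -0.17) for Mtf1, -0.20 (-0.38 to -0.03) for Slc30a1 and -0.30 (-0.45 to -0.16) for Slc39a10. All 5 were lower in the humanized library on this scale, but so were most genes: among 13728 genes of 100 or more UMIs, 81.7% had a ratio below 0, the median was -0.21, and 13.5% differed by 1.5-fold or more, 87 higher and 1770 lower. With TMM factors the 1.5-fold counts were 244 higher and 773 lower, the median moved up by 0.24, and Mt1 and Slc30a1 turned to 0.16 and 0.038. Relative to the median of all genes the members lay at 0.13 for Mt1, -0.03 for Mt2, -0.05 for Mtf1, 0.01 for Slc30a1 and -0.09 for Slc39a10. Over all deep barcodes they therefore stood in the body of the distribution, with between 36.3% (Slc39a10) and 70.2% (Mt1) of genes lower than them. None of the 6 measured Slc30 genes and none of the 10 measured Slc39 genes was 1.5-fold apart. Their medians were -0.17 and -0.11. The lowest ratio was that of Slc39a7, an importer of the endoplasmic reticulum and Golgi, at -0.44 (114 humanized and 142 wild-type UMIs). The highest was that of Slc30a7, an exporter into the Golgi, at 0.15.

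Metallothionein levels also varied with depth, which differed between the libraries. In barcodes of 5000 to 10000 UMIs, Mt1 had 5694 CPM in the humanized and 6615 CPM in the wild-type library. In barcodes of 10000 to 20000 UMIs it had 4937 and 5786 CPM, and in those of 20000 or more it had 3964 and 4341 CPM. Mt1 was thus lower in deeper barcodes of both libraries. Within these 3 depth ranges the log2 ratio of humanized over wild-type was -0.22, -0.23 and -0.13 for Mt1 and -0.41, -0.39 and -0.22 for Mt2, with medians of all genes of -0.17, -0.16 and -0.18. Relative to these medians Mt1 lay at -0.05, -0.07 and 0.05 and Mt2 at -0.24, -0.23 and -0.04. Mtf1 lay at -0.24, -0.09 and -0.05, Slc39a10 at -0.12, -0.32 and -0.05 and Slc30a1 at 0.39, -0.10 and -0.07. The Slc30a1 value of 0.39 rests on 100 humanized and 35 wild-type UMIs. Mt2 thus stood farther below the median in both shallower ranges than over all deep barcodes. The Mt1 ratio of all deep barcodes, -0.08, lay nearer 0 than that of any depth range. The share of Mt2 in the metallothionein UMIs was 26.3% (26.2 to 26.4) in humanized and 28.5% (28.4 to 28.6) in wild-type deep barcodes.

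Within each library Mt1 varied widely from barcode to barcode. Per 10000 UMIs of a deep barcode, the 10th percentile, median and 90th percentile of Mt1 were 8.75, 27.9 and 121 in the humanized library and 10.6, 33.8 and 126 in the wild-type library, and the highest barcodes reached 921 and 577. For Mt2 the same percentiles were 3.57, 11.1 and 39.8 in the humanized and 5.14, 14.6 and 46.7 in the wild-type library. The distribution was broad in both libraries. After thinning to 5000 UMIs, the 10% of barcodes with the most Mt1 held 38.4% of its UMIs in the humanized and 35.3% in the wild-type library. The variance over the mean of thinned Mt1 was 35.5 and 30.8, which was the highest value, rank 1, among the 562 humanized and 615 wild-type genes with a mean of at least 1 UMI. Mt2 stood at 10.8 in both libraries, rank 3 in the humanized and rank 4 in the wild-type library. This measure grows with the mean level. By SD over mean, Mt1 had rank 26 in the humanized and rank 81 in the wild-type library.

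**Figure D2:**
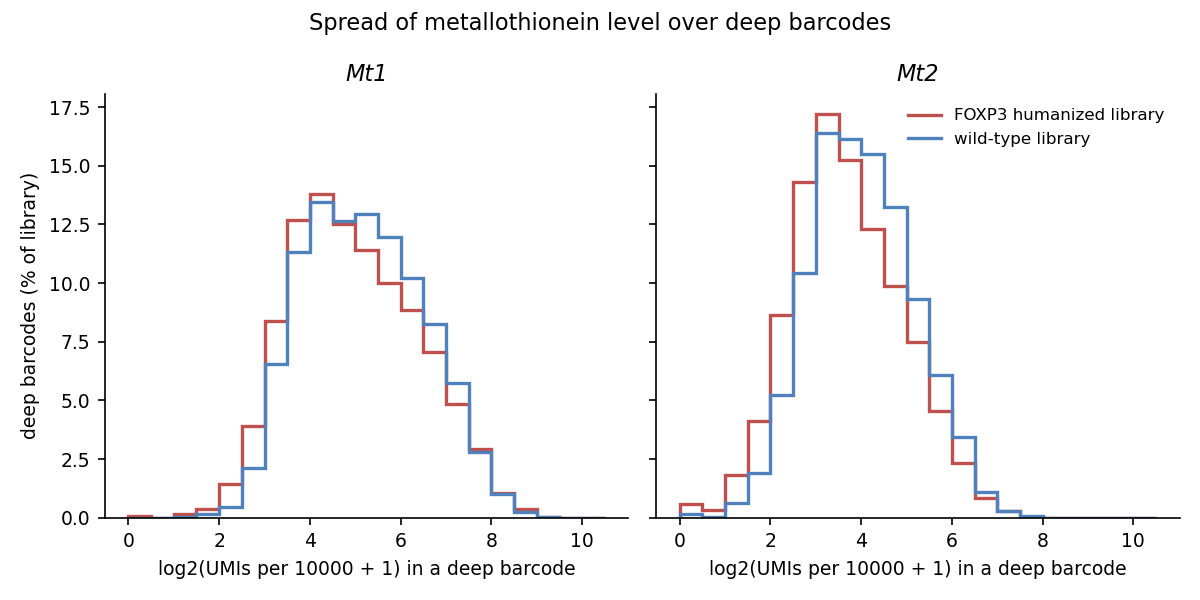
Share of deep barcodes (vertical axis, % of the library) by log2(UMIs per 10000 + 1) of Mt1 (left) and Mt2 (right) in the FOXP3 humanized and wild-type libraries. The humanized outline lies slightly left of the wild-type one for both genes, with medians of 27.9 and 33.8 for Mt1 and 11.1 and 14.6 for Mt2.

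Mt1 and Mt2 varied together. Pearson's r of their log2(thinned UMIs + 1) was 0.79 over the 9671 humanized and 0.79 over the 6705 wild-type deep barcodes, which within a library share depth and capture. When barcodes were ranked on Mt1 alone, thinned Mt2 was 5769 CPM in the top 10% and 717 CPM in the lower 50% of the humanized library, against 6522 and 942 CPM in the wild-type library. The sparse regulators gave r between -0.03 and 0.05 with Mt1, values too weak to read in counts of this depth, so they were described over groups of barcodes.

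For that purpose deep barcodes of each library were ranked on thinned Mt1 plus Mt2 and the UMIs of the top 10% were set against those of the lower 50%. The ranked genes have to differ by construction: Mt1 and Mt2 UMIs together made up 2.48% and 0.224% of all UMIs in the 2 humanized groups and 2.50% and 0.274% in the 2 wild-type groups. The top groups held 967 humanized and 670 wild-type barcodes, the lower groups 4835 and 3352. Median depths were 10940 (top) and 13072 UMIs (lower) in the humanized and 13426 (top) and 18500.5 UMIs (lower) in the wild-type library, so the high groups were shallower, and the part of depth in the ratios below was not tested beyond the depth range given with them. Most genes were lower in the top group. Counting all UMIs of these barcodes, the median log2 ratio of top over lower was -0.30 over 11511 humanized and -0.23 over 11905 wild-type genes. Of these genes 4.4% were higher and 27.7% lower by 1.5-fold or more in the humanized library, and 4.78% were higher and 21.3% lower in the wild-type library.

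Slc30a1 stood with the metallothioneins. In the humanized library it had 83 UMIs and 6.75 CPM in the top 10%, against 233 UMIs and 3.20 CPM in the lower 50%, a log2 ratio of 1.08 (0.70 to 1.45). In the wild-type library it had 79 UMIs and 7.33 CPM in the top 10%, against 248 UMIs and 3.60 CPM in the lower 50%, a log2 ratio of 1.03 (0.64 to 1.40). Over 10 equal groups of rising Mt1 plus Mt2, its level was lowest in group 1 (2.51 CPM humanized, 2.40 CPM wild-type) and highest in group 10. Among barcodes of 10000 to 20000 UMIs alone the ratio was 0.94 in the humanized and 1.13 in the wild-type library.

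Mtf1, which encodes the factor itself, stayed near the same level in the humanized library and was slightly higher in the wild-type top group. It had 13.6 CPM in the top 10% and 13.7 CPM in the lower 50% of the humanized library, a log2 ratio of -0.01 (-0.26 to 0.22), and 19.3 and 15.9 CPM in the wild-type library, a ratio of 0.28 (0.06 to 0.49). Both intervals lay above the median of all genes, -0.30 in the humanized and -0.23 in the wild-type library. The wild-type interval included 0 with thinned UMIs, the top 5% of barcodes, a ranking on Mt2 alone or barcodes of 10000 to 20000 UMIs. It stayed above 0 when barcodes were ranked on Mt1 alone or on the unthinned share of UMIs. Slc39a10 was lower in the top group of both libraries. It had 3.34 CPM (41 UMIs) in the top 10% and 6.13 CPM (447 UMIs) in the lower 50% of the humanized library, a log2 ratio of -0.88 (-1.38 to -0.41). In the wild-type library the levels were 4.92 CPM (53 UMIs) and 6.79 CPM (468 UMIs), a ratio of -0.47 (-0.90 to -0.05). The 2 intervals overlap, and that of the wild-type library includes the median of all its genes, whereas that of the humanized library lies below the median. The difference between libraries was not tested. With thinned UMIs the Slc39a10 interval included 0 in both libraries (-1.34 to 0.09 humanized, -1.30 to 0.27 wild-type). The wild-type one also included 0 with a ranking on the unthinned share of UMIs or in barcodes of 10000 to 20000 UMIs. Over the 10 groups the wild-type level showed no steady decline. It was 7.72 CPM in group 1, 5.70 CPM in group 2, 7.68 CPM in group 9 and 4.92 CPM in group 10.

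**Figure D3:**
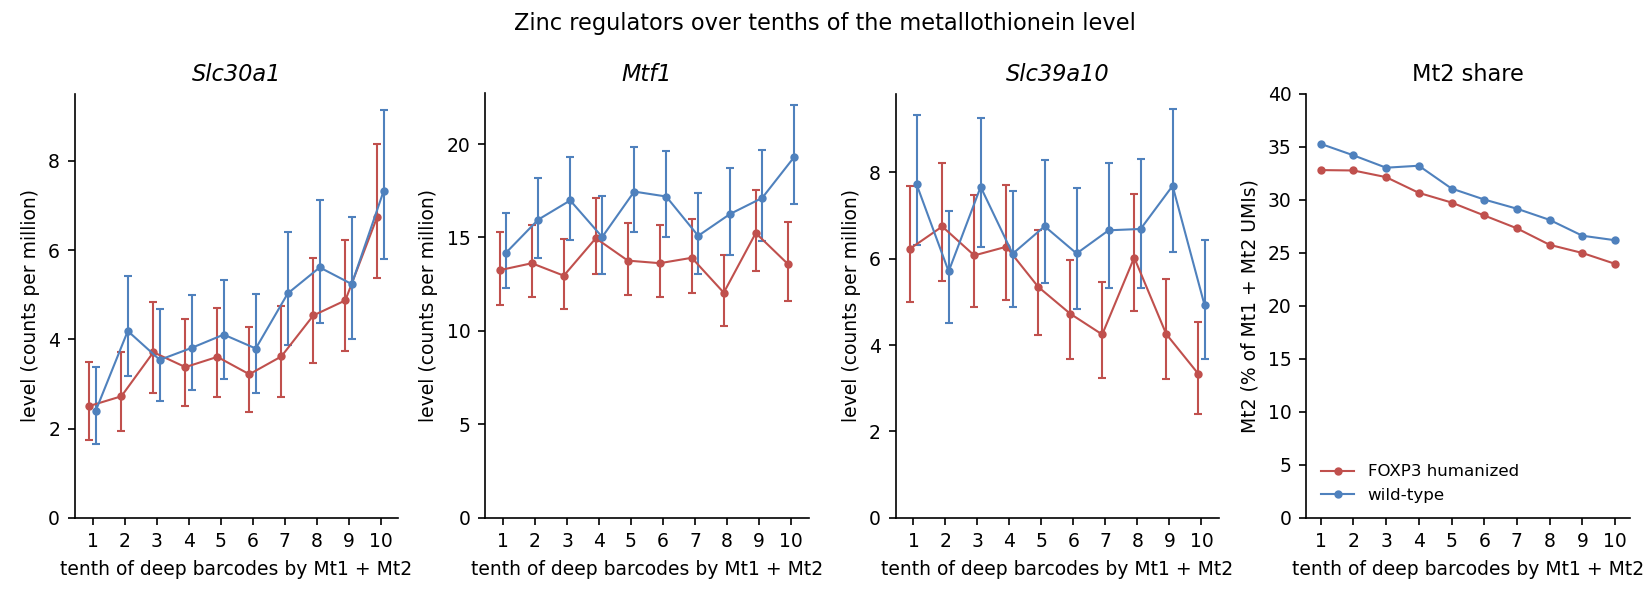
Levels of Slc30a1, Mtf1 and Slc39a10 (CPM, first 3 panels) and the Mt2 share of Mt1 plus Mt2 UMIs (%, last panel) over 10 equal groups of deep barcodes ranked on thinned Mt1 plus Mt2, low to high, in the FOXP3 humanized and wild-type libraries; bars are exact 95% counting intervals. Slc30a1 reaches 6.75 CPM in humanized and 7.33 CPM in wild-type group 10, and the Mt2 share declines along the groups in both libraries.

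The other zinc transporters were mostly lower in metallothionein-high barcodes, as most genes were. Of the 6 Slc30 genes with enough UMIs, Slc30a1 and Slc30a4 were higher by 1.5-fold or more in each library, and 1 humanized and 0 wild-type ones were lower by that much. Slc30a4 was under 1.5-fold in the humanized library with thinned UMIs, at 0.51, and in barcodes of 10000 to 20000 UMIs, at 0.55, and in the wild-type library with the top 5% of barcodes, at 0.55. Slc30a4 moves zinc into vesicles and into milk, and it had 11.7 CPM (top) and 7.50 CPM (lower) in the humanized library, a log2 ratio of 0.64 (0.37 to 0.91), and 12.1 CPM (top) and 6.98 CPM (lower) in the wild-type library, a ratio of 0.79 (0.50 to 1.07). Its promoter window held 3 matches to the metal response core. Outside the 5 members no other Slc30 or Slc39 window was listed. Whether the matches set Slc30a4 apart from those transporters, or bear on its level, was not tested. The other 4 Slc30 genes had ratios of -0.63 (Slc30a7) to -0.35 (Slc30a6) in the humanized and -0.54 (Slc30a6) to -0.28 (Slc30a5) in the wild-type library. Of 8 measured Slc39 genes, 0 were 1.5-fold higher in either library, and 5 humanized and 2 wild-type ones were 1.5-fold lower. The lowest was Slc39a14, the ZIP14 importer of zinc and non-transferrin iron, at -1.10 (-1.34 to -0.87) in the humanized and -1.14 (-1.38 to -0.92) in the wild-type library. Slc39a3, a plasma membrane importer, was the exception, at 0.26 (-0.04 to 0.56) and 0.52 (0.22 to 0.82).

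**Figure D4:**
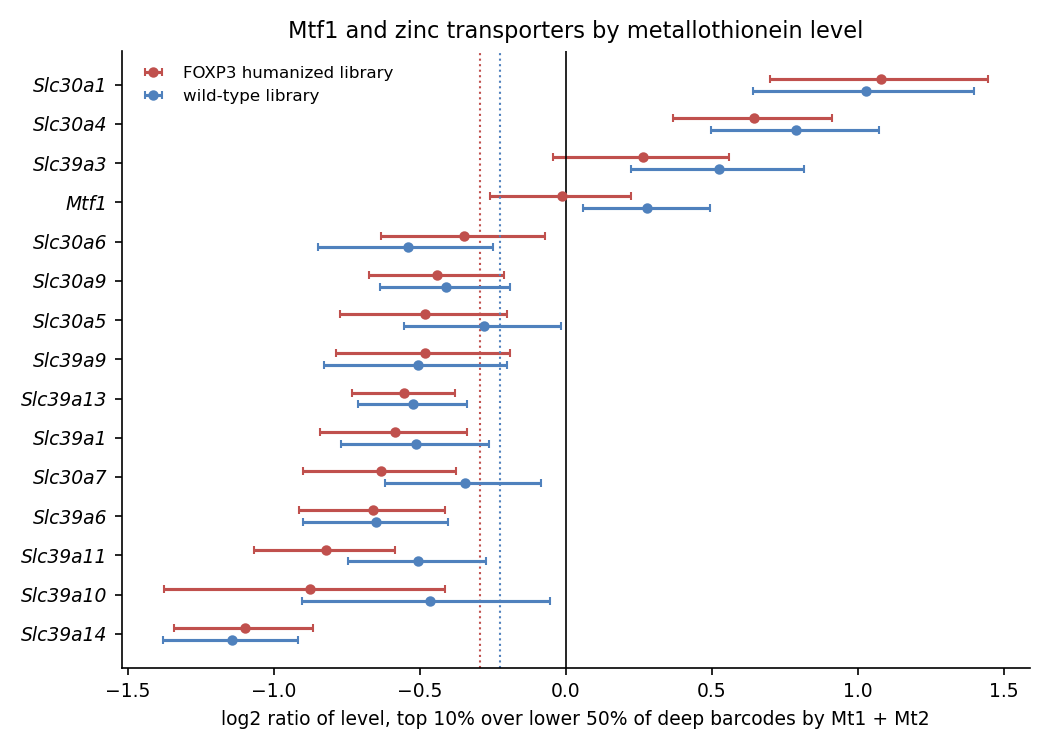
Log2 ratio of level in the top 10% over the lower 50% of deep barcodes ranked on Mt1 plus Mt2 (horizontal axis) for Mtf1 and the Slc30 and Slc39 genes with at least 100 UMIs; the FOXP3 humanized library is drawn above the wild-type one, bars are exact 95% counting intervals, and dotted lines are the medians of all genes, -0.30 and -0.23. Slc30a1 and Slc30a4 lie to the right of 0 in both libraries, and Slc39a14 lies lowest.

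The Mt1 to Mt2 balance also moved along the ranking. Mt2 made up 32.8% of metallothionein UMIs in group 1 and 23.9% in group 10 of the humanized library, and 35.3% and 26.2% in the wild-type library. The ranking used these same counts, of which Mt1 is the larger part, so the Mt2 share is tied to the ranking and is given as a description only.

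Lists of other gene programmes were counted over the same groups on UMIs thinned to 5000 per barcode. On that scale 4.7% of 9757 humanized genes were higher and 28.8% lower by 1.5-fold or more, against 4.07% and 22.7% of 9464 wild-type genes, with medians of -0.30 and -0.24. Genes of hypoxia and glycolysis were higher in metallothionein-high barcodes: 8 of 12 measured in the humanized library (median 1.07) and 7 of 11 in the wild-type library (median 0.64), with 0 lower in either. Examples are Ndrg1, a hypoxia-induced stress gene, at 1.53 and 1.13, the mitophagy receptor Bnip3 at 1.52 and 1.08, and the HIF prolyl hydroxylase Egln3 at 1.29 and 0.64, humanized before wild-type. Car9, the tumour carbonic anhydrase, reached 2.24 in the humanized library and had too few thinned UMIs (71) in the wild-type one. Cytosolic heat shock genes were higher for 6 of 8 in the humanized and 5 of 8 in the wild-type library, with 0 lower. Among them the co-chaperone Dnajb1 was at 2.16 and 2.19, the HSP110 gene Hsph1 at 1.31 and 1.44, and the co-chaperone Bag3 at 1.25 and 0.94.

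Cell cycle genes were lower in metallothionein-high barcodes. Of all genes compared, 28.8% of humanized and 22.7% of wild-type ones were also lower by 1.5-fold or more. Of 10 S phase genes, 10 were lower by 1.5-fold or more in the humanized and 6 in the wild-type library, such as the ribonucleotide reductase subunit Rrm2 at -1.93 and -1.99 and thymidylate synthase Tyms at -1.71 and -1.63. Of 10 genes of G2 and mitosis, 7 humanized and 4 wild-type ones were 1.5-fold lower. Plk1, the lowest of these in the humanized library, was at -1.01 and -0.74. The S phase medians were -0.89 and -0.70 and those of G2 and mitosis -0.71 and -0.37, beside -0.30 and -0.24 over all genes. The wild-type median of G2 and mitosis thus lay near that of all genes. The integrated stress response was split in both libraries, with 6 of 10 genes lower and 2 higher. Among those lower were the serine synthesis gene Psat1 at -1.44 and -1.57, its pathway partner Phgdh at -1.23 and -1.24 and the glutathione-degrading enzyme gene Chac1 at -1.65 and -1.39, while the transcription factor genes Ddit3 and Atf3 were the higher ones, at 1.24 and 1.20 for Ddit3 and at 0.65 and 0.72 for Atf3.

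Lists tied to metals and to other metallothionein inducers held genes higher and genes lower. Their counts stand beside 4.7% higher and 28.8% lower of all humanized genes compared, and 4.07% and 22.7% of all wild-type ones. For copper handling 0 of 8 genes were 1.5-fold apart in either library. Among iron genes 2 of 9 humanized and 2 of 8 wild-type were higher, the ferritin light chain Ftl1 at 1.00 and 0.94 and the ferrireductase Steap3 at 0.78 and 1.05, and the iron transporter Slc11a2 was lower at -1.24 and -1.11. Among NRF2 targets only Hmox1, haem oxygenase, was higher, at 2.01 and 1.36, whereas 2 of 9 humanized and 3 of 10 wild-type genes were lower. Of 8 glucocorticoid-induced genes 3 were higher and 2 lower in the humanized library and 1 was higher and 0 lower in the wild-type one, with Cebpd at 1.52 and 1.40. Of 7 genes of STAT3 and the acute phase 1 was higher in each library, Pim1 at 1.02 and 0.81, and 1 humanized and 0 wild-type genes were lower. Interferon-stimulated genes gave 3 of 8 higher and 0 lower in the humanized library and 1 higher and 1 lower of 7 in the wild-type one. Cell type markers were counted in the same way. Of 10 non-leukocyte markers, which the deep barcodes carry, 0 were higher in either library and 2 humanized and 4 wild-type were lower, of 5 fibroblast markers 1 was higher and 2 were lower in each, and of 12 myeloid markers 2 humanized and 1 wild-type had enough UMIs, of which 1 was higher in the humanized and 1 lower in the wild-type library.

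The genes most like Mt1 plus Mt2 from barcode to barcode were found by Pearson's r of log2(thinned UMIs + 1) among 6816 genes with a thinned UMI in at least 5% of deep barcodes of each library. The 10 highest in the wild-type library were Ftl1, the galectin gene Lgals3, the initiation factor gene Eif1, the ribosomal protein gene Rps21, 1110038B12Rik, the autophagy gene Gabarap, Dnajb1, the small heat shock protein gene Cryab, Tpt1 and the ribosomal protein gene Rpl37a. Their r over the 9671 humanized barcodes was 0.43 for Ftl1, 0.36 for Lgals3, 0.41 for Eif1, 0.25 for Rps21, 0.33 for 1110038B12Rik, 0.34 for Gabarap, 0.34 for Dnajb1, 0.34 for Cryab, 0.35 for Tpt1 and 0.24 for Rpl37a. Over the 6705 wild-type barcodes r was 0.42 for Ftl1 and 0.32 to 0.35 for the other 9. Ftl1 was first in both libraries, far below the 0.79 between Mt1 and Mt2. The 5 lowest were the splicing factor gene Srsf3, Eif5a, the TWEAK receptor gene Tnfrsf12a, Actb and the galectin gene Lgals1, with r of -0.38, -0.40, -0.36, -0.37 and -0.35 in the humanized and -0.40, -0.37, -0.37, -0.37 and -0.36 in the wild-type library. For comparison, 98% of these genes lay between -0.21 and 0.18 in the humanized and between -0.20 and 0.17 in the wild-type library. This comparison was not matched for level, and r is weaker in sparse counts, so the order also follows abundance. Among the 10 highest, Dnajb1 had a thinned UMI in 48.8% and Cryab in 76.6% of wild-type deep barcodes, the rest in at least 91.7%.

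In T barcodes the metallothioneins were read at a lower level than in deep barcodes. Mt1 had 288 UMIs and 1029 CPM (913 to 1155) in humanized T barcodes, against 211 UMIs and 1138 CPM (990 to 1302) in wild-type ones. Mt2 had 92 UMIs and 329 CPM (265 to 403) in the humanized and 74 UMIs and 399 CPM (313 to 501) in the wild-type library. As a percentage of the deep level of the same library, Mt1 stood at 21.8% in the humanized and 22.8% in the wild-type library and Mt2 at 19.5% and 20.0%. With every barcode thinned to 1000 UMIs, an Mt1 UMI was found in 48.4% (40.3 to 56.5) of humanized T barcodes, against 86.3% of humanized deep ones, and in 47.9% (37.6 to 58.4) of wild-type T barcodes, against 89.9% of wild-type deep ones. Unthinned, the shares in T barcodes were 63.9% and 69.8%.

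Transcripts of non-leukocyte cells were present in the same T barcodes. A list of 17 non-leukocyte markers gave at least 1 UMI in 54.2% of humanized and 57.3% of wild-type T barcodes, and its summed level was 23.8% and 15.8% of that in deep barcodes. Of the 17, the keratins Krt7, Krt8, Krt18 and Krt19, the cadherin Cdh1 and Ccn2 were at 0 in T barcodes of both libraries. Of 10 markers with at least 1000 deep UMIs, 6 humanized ones had a higher T to deep percentage than Mt1 and 8 a higher one than Mt2, with a range of 18.1% (Fstl1) to 164% (Igfbp7) and a median of 26.4%. In the wild-type library 2 of 10 exceeded Mt1 and Mt2, with a range of 8.63% (Ccn1, 1 UMI) to 319% (Igfbp7, 7 UMIs) and a median of 14.9%. Both metallothionein percentages were thus below the median of the markers in the humanized library and above it in the wild-type library. The part of such transcripts in the metallothionein UMIs of T barcodes was not tested. The Mt2 share of metallothionein UMIs in T barcodes was 24.2% (20.0 to 28.8) in the humanized and 26.0% (21.0 to 31.5) in the wild-type library, intervals that include the deep shares of 26.3% and 28.5%.

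Mt1 was higher in T barcodes with more non-leukocyte UMIs. In T barcodes with no UMI of that list, Mt1 had 592 CPM (456 to 756) in 71 humanized and 507 CPM (353 to 706) in 41 wild-type barcodes. In those with 1 to 4 such UMIs it had 876 CPM in 75 humanized and 811 CPM in 53 wild-type barcodes, and in those with 5 or more it had 3738 CPM in 9 humanized and 9678 CPM in 2 wild-type barcodes. Median depth rose along the same groups, with 1441, 1743 and 2845 UMIs in the humanized and 1442, 1798 and 4598 UMIs in the wild-type library. The part of depth in these levels was not tested. A wild-type barcode with 4694 UMIs, 1 CD3 UMI and 8 non-leukocyte UMIs held 82 of the 211 wild-type Mt1 UMIs (38.9%). Without the barcode richest in Mt1 in each library, the level was 924 CPM (814 to 1045) in humanized and 714 CPM (596 to 848) in wild-type T barcodes. Foxp3 marks the study's cells of interest. In 10 humanized T barcodes with a Foxp3 UMI, Mt1 had 607 CPM (291 to 1116). In 18 such wild-type barcodes it had 711 CPM (456 to 1058). Thinned as for the Mt1 shares of T barcodes, 3.23% of humanized and 17.7% of wild-type T barcodes had a Foxp3 UMI. Whether transcripts of the humanized gene are counted under the mouse symbol Foxp3 was not tested. The groups may therefore not hold the same kind of cell, and their Mt1 levels are not a comparison of genotypes.

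**Figure D5:**
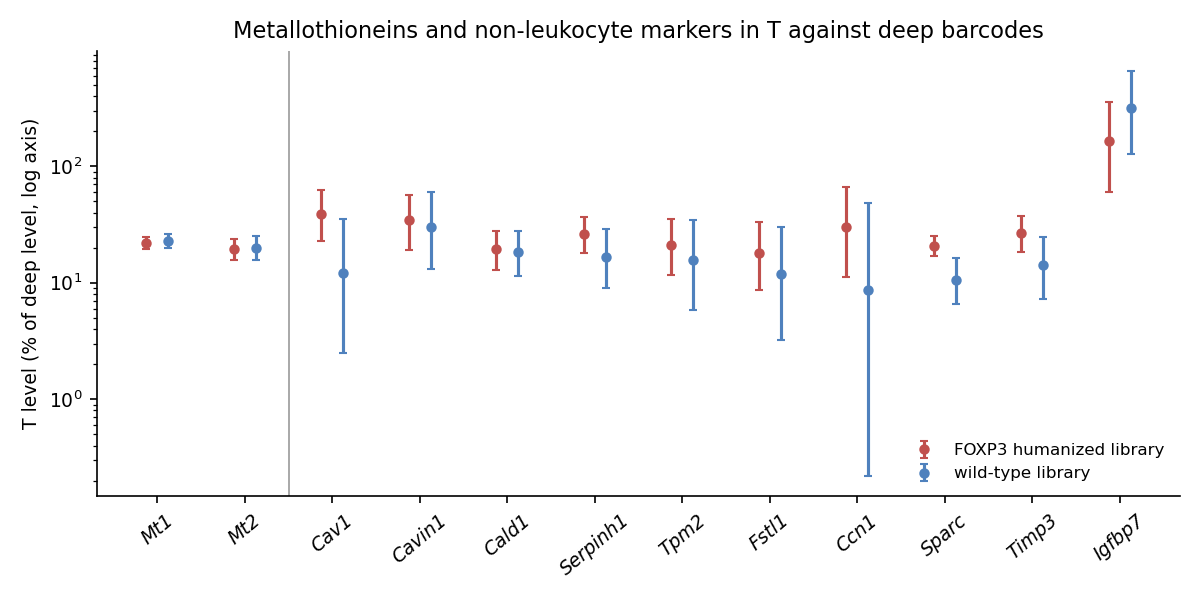
Level in T barcodes as a percentage of the level in deep barcodes of the same library (vertical log axis) for Mt1, Mt2 and the 10 non-leukocyte markers with at least 1000 deep UMIs, in the FOXP3 humanized and wild-type libraries; bars are exact 95% counting intervals. Mt1 lies at 21.8% and 22.8%, within the spread of the markers, and Igfbp7 lies above them at 164% and 319%.

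Over all T barcodes the interval of the genotype ratio included 0 for both metallothioneins. The log2 ratio of humanized over wild-type was -0.15 (-0.41 to 0.12) for Mt1 and -0.28 (-0.74 to 0.18) for Mt2, and 0 of these 2 genes were 1.5-fold apart. In the same comparison 30.3% of 3388 genes of 20 or more UMIs were 1.5-fold apart, 372 higher and 654 lower, with a median of -0.12; with TMM factors the counts were 528 higher and 375 lower. The sign of the Mt1 ratio depended on which T barcodes were counted and on the scaling. The ratio was 0.37 (0.06 to 0.69) without the barcode richest in Mt1 in each library and 0.43 (0.08 to 0.78) with at least 2 CD3 UMIs, intervals above 0. It was 0.13 (-0.21 to 0.46) without barcodes of 5 or more non-leukocyte UMIs and 0.02 (-0.24 to 0.28) with TMM factors. Apart from the scaling, these selections all leave out the wild-type barcode richest in Mt1, so they are not independent of each other. A limit of under 3000 UMIs also leaves it out, and the ratio was then -0.10 (-0.47 to 0.27). In T barcodes 5 of 7 measured non-leukocyte markers were 1.5-fold higher in the humanized library and 0 lower, with a median of 0.75. The regulators were near the limit of the data, with 3 humanized and 4 wild-type UMIs of Mtf1, 0 and 2 of Slc30a1, and 5 and 2 of Slc39a10. For the 0 UMIs of Slc30a1 in humanized T barcodes the 3-count limit is 10.7 CPM and the exact upper limit 13.2 CPM. Both lie above its deep level of 3.83 CPM, so a lower level in T barcodes was not detectable at this depth.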

How the data were processed

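The authors deposited raw counts of UMIs for each gene in each barcode of the cDNA libraries, in matrices written by PISA 1.0 per the file headers; the submitters' processing notes name build GRCm39. For the aligner, the annotation and the cell calling rule nothing is given in the sources used here, and the oligo libraries are not used here. No barcode was removed, and no doublet caller was run. Because names are given as symbols, reads shared between near-identical genes are uncertain.

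UMIs were summed per library and class and scaled to CPM. Levels carry exact Poisson intervals, shares exact Clopper-Pearson intervals and ratios exact conditional intervals, at 95%. A sum of 0 was set to 3 counts in a ratio. Genes with at least 100 UMIs (deep), 20 (T) or 100 (metallothionein groups) were compared and called at 1.5-fold. Deep barcodes were thinned to 5000 UMIs without replacement, ties broken at random. No test between genotypes was made, since each has 1 library. The code for the ratios was checked on simulated counts. Promoters come from RefSeq (GRCm38.p6), whose build differs from that of the counts.

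The members and lists were chosen with earlier results of these data known. Named were the 5 members, all measured Slc30 and Slc39 genes and Mt3 and Mt4, the 10 highest and 5 lowest genes by r in the wild-type library, and up to 4 examples per list. The use of all UMIs of the ranked barcodes for the zinc genes was chosen after seeing the data. Alternatives used edgeR 4.0.16 (TMM) and DESeq2 1.42.0 size factors, other depth limits, T definitions and rankings; Python 3.11.15, numpy 2.4.6 and scipy 1.17.1 did the rest.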

Additional observations from a re-analysis of the deposited data

How the results depend on the processing

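Between genotypes the sign of the deep ratios depends on scaling. For Mt1 the log2 ratio was 0.16 with TMM factors and 0.15 with DESeq2 size factors, for Slc30a1 0.038 and 0.03, and for Mt2 -0.0009 and -0.0092, because both scalings move all genes up together. Other settings kept the sign: -0.11 for Mt1 and -0.28 for Mt2 as a mean over barcodes, -0.11 and -0.25 from 10000 UMIs, -0.10 and -0.26 without the 1% of barcodes highest in the gene, and -0.11 and -0.29 after thinning. In T barcodes the Mt1 ratio was 0.43 (0.08 to 0.78) with at least 2 CD3 UMIs. It was 0.37 (0.06 to 0.69) without the barcode richest in the gene. In settings added after seeing the data, it was 0.13 without barcodes of 5 or more non-leukocyte UMIs and 0.22 in barcodes with none. All of these settings leave out the wild-type barcode richest in Mt1. With under 3000 UMIs, which leaves it out too, the ratio was -0.10 (-0.47 to 0.27). The cause was not tested. Genes past 1.5-fold numbered 1017 (TMM), 1028 (DESeq2) and 5675 (no minimum) in deep barcodes, against 1857, and 59 (at least 100 UMIs) and 3444 (no minimum) in T barcodes, against 1026. By metallothionein level, genes at least 1.5-fold higher numbered 780 in the humanized and 812 in the wild-type library with a minimum of 20 UMIs, against 459 and 385, and 591 in the wild-type library without thinning. Over 6 other settings, of which thinned UMIs and barcodes of 10000 to 20000 UMIs were added after seeing the data, Slc30a1 stayed between 0.91 and 1.26 in the humanized and 0.96 and 1.57 in the wild-type library, Slc39a10 between -1.01 and -0.58 and between -0.68 and -0.18, Slc30a4 between 0.51 and 0.66 and between 0.55 and 1.21, and Mtf1 between -0.05 and 0.12 and between 0.13 and 0.38. No paired analysis was possible because each genotype has 1 library. Depth limits the regulators in T barcodes, where no member but Mt1 and Mt2 had over 5 UMIs in a library.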

Other observations

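Of 9354 genes measured in both libraries after thinning, 415 humanized and 370 wild-type genes were at least 1.5-fold higher in the top 10% of barcodes by Mt1 plus Mt2, and 241 were so in both, which is 58.1% of the humanized and 65.1% of the wild-type genes. At least 1.5-fold lower in both were 1575 genes, 59.2% of 2659 humanized and 74.4% of 2117 wild-type ones. The genes named next were chosen after their values were seen. Ordered by the smaller of both libraries' ratios, the genes next after Mt1 and Mt2 were Lenep at 2.70 in the humanized and 2.56 in the wild-type library, Dnajb1 at 2.16 and 2.19, Atosa at 2.47 and 2.05, and Crebrf, a regulator of the CREB3 factors, at 2.04 and 1.87. Lower genes included the cyclin gene Ccne1 at -3.67 and -5.13, thymidine kinase Tk1 at -2.32 and -2.29, and the cystathionine lyase gene Cth at -2.05 and -2.44. The humanized top group held 0.620 CPM of Ccne1 against 7.90 CPM in the lower group, and the wild-type groups held 0.299 and 10.4 CPM. The humanized top level is 3 thinned UMIs and the wild-type one rests on fewer. The size of both Ccne1 ratios is therefore uncertain, and no interval is given for them.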
